A study of Homo sapiens with 6 samples.

Results

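The genes described here carry secretory proteins into the endoplasmic reticulum (ER) and out of it again. They encode the signal recognition particle (SRP) and its receptor, the SEC61 translocon, signal peptidase, the COPII coat, and the receptors that sort cargo or return ER residents. Members were listed by name and function, with no threshold on a measured value but with earlier results of these data known, and are given by step. Of the 42 names listed, 41 had a row among the 24960 genes of the deposited table. The name SEC12 had none, and its protein is the product of PREB, which was present. All 41 genes passed the filter on low counts, with between 194 and 18253 counts in any library, so none of them depended on 1 group to be tested. RNA came from K562, a chronic myeloid leukemia (CML) cell line that carries BCR::ABL. The control group held 3 libraries without hyperoside and the hyperoside group 3 libraries from cells given this flavonol glycoside, at the highest concentration of the study's cell assays. The sources used here give neither the vehicle of the control, nor the time of exposure before RNA extraction, nor whether the libraries of a group came from separate cultures. P-values therefore measure the spread between these libraries, which may be technical, and all of them come from 1 cell line.

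As background, a signal sequence that leaves the ribosome is bound by the SRP, which docks the ribosome on its receptor at the ER membrane. The chain then enters the SEC61 channel with help from the translocon-associated protein (TRAP) complex, and signal peptidase removes the signal sequence. Folded cargo leaves at ER exit sites, where the GTPase SAR1 recruits the inner coat of SEC23 and SEC24 and the outer cage of SEC13 and SEC31. Proteins that end in a KDEL-type signal are caught in the Golgi by KDEL receptors and carried back. Many genes of this pathway are known to be induced during the unfolded protein response, in part through the transcription factor XBP1, which can bind the core TGACGTG.

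Library totals ran from 35613283 to 36754725 counts, and the members took 0.655 to 0.705% of them under control and 0.553 to 0.564% under hyperoside. Replicates differed by more than counting error, and control replicate 1 stood apart. Its chi-square per degree of freedom was 21.3 and 24.4 against control replicates 2 and 3, which gave 6.46 against each other, while pairs of hyperoside libraries gave 7.57 to 14.0. Control replicate 1 was the lowest control library for 23 of the 41 genes and the highest for 15. The erythroid genes that mark K562 were present, with all 10 above 1 FPKM in at least 1 library, and their summed level was 7736 to 9571 FPKM in control libraries and 5691 to 6877 in hyperoside libraries. Although the labels give bone as the tissue, none of the 4 bone-forming and stromal markers found reached 1 FPKM, and their sum was 0.829 to 1.41 FPKM in control and 0.711 to 1.02 in hyperoside libraries. The sums of the 4 T cell markers were 35.2 to 42.6 FPKM in control and 48.1 to 54.1 in hyperoside libraries, mostly from CD3D. The 2 epithelial markers summed to 48.8 to 50.9 FPKM in control and 49.3 to 53.1 in hyperoside libraries, mostly from EPCAM, and the 4 B cell markers to at most 1.85 FPKM. CD2 and MS4A1 had at most 2 counts in any library. The part of these shifts in the results was not tested.

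Promoter sequences were searched for the XBP1-type core TGACGTG. As the members were listed by function, its frequency among them may follow from that choice. Any link between the core and their levels under hyperoside was not tested. RefSeq promoters of GRCh38.p14, from 250 bases before to 50 bases after a start site, were matched for 36 of the 41 genes, and a gene with several start sites was counted once if any of its promoters held a motif. The core stood on either strand in 10 of these 36 (27.8%), namely SRP19, SEC61A1, SEC62, SSR3, SSR4, SEC13, SEC16A, SEC23A, SEC24A and KDELR3, and in 3.24% of the 11721 tested genes with such a promoter. Stretches are printed here as the core with up to 30 bases on each side, ended soon after the start site, for 9 of the 10 genes. That of SEC16A lies after the start site and is not printed. The core is in capitals, 5′ to 3′ on the strand of the gene, and CACGTCA is the same core on the other strand.
SRP19, chr5:112861146-112861212, plus strand: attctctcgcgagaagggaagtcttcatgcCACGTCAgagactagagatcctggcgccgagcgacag
SEC61A1, chr3:128052406-128052456, plus strand: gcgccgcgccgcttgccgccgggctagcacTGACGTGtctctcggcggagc
SSR3, chr3:156554129-156554195, minus strand: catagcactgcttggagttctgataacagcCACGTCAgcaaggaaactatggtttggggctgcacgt
SSR4, chrX:153794510-153794576, plus strand: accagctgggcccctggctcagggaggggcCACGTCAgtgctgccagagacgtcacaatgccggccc
SEC13, chr3:10321219-10321285, minus strand: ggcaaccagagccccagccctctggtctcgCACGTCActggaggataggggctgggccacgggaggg
SEC24A, chr5:134648576-134648642, plus strand: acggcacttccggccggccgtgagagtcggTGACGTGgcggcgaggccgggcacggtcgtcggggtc
SEC23A, chr14:39103216-39103269, minus strand: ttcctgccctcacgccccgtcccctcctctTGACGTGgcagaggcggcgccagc
KDELR3, chr22:38468021-38468087, plus strand: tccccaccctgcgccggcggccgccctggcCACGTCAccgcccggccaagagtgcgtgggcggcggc
SEC62, chr3:169966761-169966826, plus strand: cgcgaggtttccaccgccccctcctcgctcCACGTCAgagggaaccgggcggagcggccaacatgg
The core began 1 base before the start site in SEC61A1, 4 bases before it in SEC23A and 179 bases before it in SEC24A. Genes of different steps, from signal recognition to retrieval, carried it. Of the 10 genes with the core, 9 were lower in the hyperoside group (adjusted p under 0.05 from edgeR), as were 23.2% of all 15095 tested genes, and SEC62 was not called. The median log2 fold change of these 10 was -0.38, and that of the 26 without the core was -0.28, with 19 of 26 called lower. The 5 members with no matched promoter are in neither set. They are SEC24D (log2 fold change -1.01), TMED9 (-0.59), KDELR2 (-0.57), SRPRA (-0.44) and SPCS1 (-0.07). The difference between the sets was not tested. Among all 380 tested genes with the core, 114 (30%) were called lower and 76 (20%) higher. Of the 11721 genes, 2769 (23.6%) were lower and 22.1% higher. CCAAT, searched on both strands, stood in 17 of 36 members (47.2%) and in 42.8% of all. The ER stress element, CCAAT followed after 9 bases by CCACG and so a case of CCAAT, was in 0 of 36 members and 0.154% of all, and its second form, ATTGG followed after 1 base by CCACG, was in 0 of 36 and 0.119%. The ATF4-type motif TGATGNAAT, like the others searched on both strands, was in 1 of 36 members, SRPRB, and 0.691% of all. A match in these letters is not a bound site, and no binding was measured in these libraries.

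Expression was then compared between the groups. In the hyperoside group 32 of the 41 genes were lower and 0 were higher, at an adjusted p under 0.05 (edgeR, quasi-likelihood F test, Benjamini-Hochberg over all 15095 tested genes). In that table as a whole 23.2% of genes were called lower and 22.1% higher. No member was higher at an unadjusted p under 0.05 either, nor called higher by DESeq2 or limma-voom. An unadjusted p under 0.05 was found for 34 members, a count for which no share over all tested genes was taken. The changes were modest, with a median log2 fold change of -0.35, which is 78.3% of the control level, while the median of all tested genes was 0.00. In 31 genes every hyperoside library lay below every control library in normalized CPM, the counts scaled to a common library size, a state found for 27.3% of tested genes. Since most members are abundant, the same reading was taken over genes with a mean of at least 50 CPM. There 28 of 36 members were lower, beside 33.0% of 4467 genes lower and 20.9% higher, and the medians were -0.31 and -0.06. Without control replicate 1, 32 members were again lower, with PREB no longer called and SEC62 called. In bulk RNA, less transcript per cell and fewer cells that carry it cannot be told apart.

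**Figure D1:**
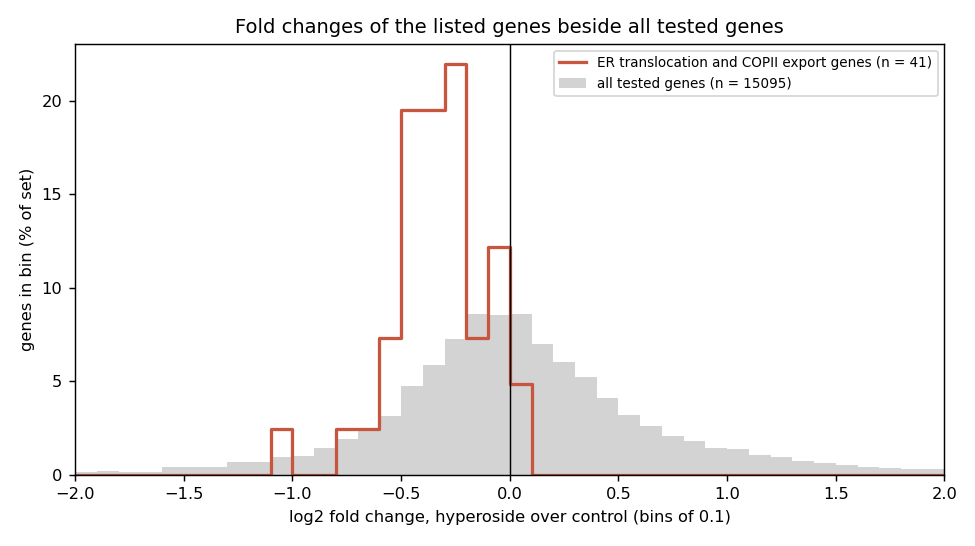
Distribution of log2 fold changes (horizontal axis, bins of 0.1) as a share of each set of genes (vertical axis, %), with all 15095 tested genes in grey and the 41 ER translocation and COPII export genes as a red line. The red line lies mostly below 0, with a median of -0.35, and ends at 0.09.

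Only SEC24D met the study's rule for a differentially expressed gene (DEG), an adjusted p under 0.05 and a change of more than 2-fold. Over all tested genes 3.76% met this rule as lower and 6.43% as higher. The log2 fold change of SEC24D was close to the 2-fold line, and it ranged from -1.05 to -0.92 over the 15 alternatives, in 7 of which the rule was missed. With a threshold of 1.5-fold, 4 members were past it, SEC24D, SEC13, SAR1A and TMED9. TMED9 changed least of these 4, and 11.8% of all tested genes had a lower log2 fold change than TMED9, whatever their adjusted p.

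**Figure D2:**
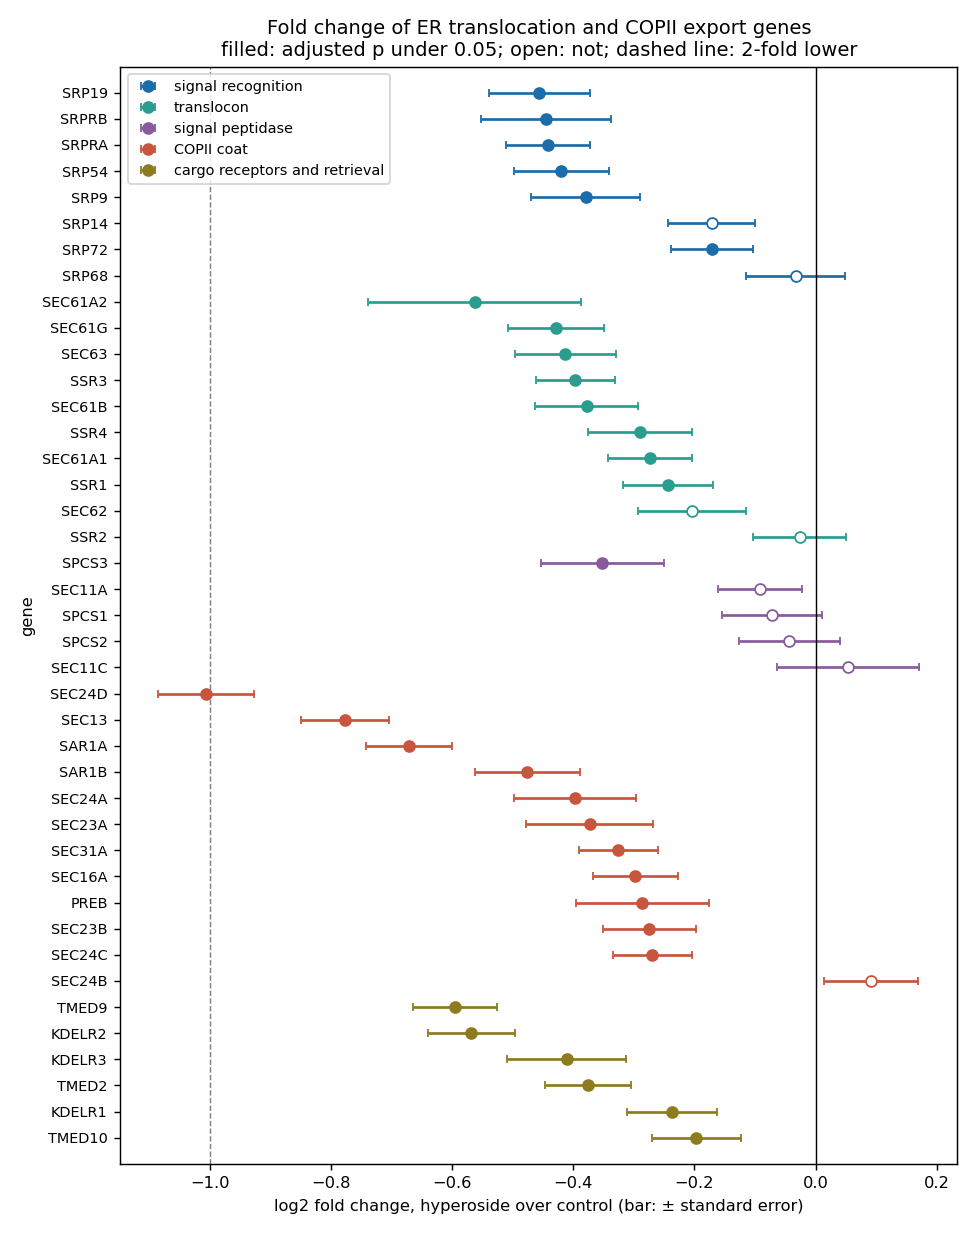
Log2 fold change of hyperoside over control (horizontal axis) for each of the 41 genes (vertical axis), grouped by step, with bars of ± 1 standard error. Filled points were called at an adjusted p under 0.05, open points were not, and only SEC24D, at -1.01, reaches the dashed 2-fold line.

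Recognition of the signal sequence came first. Of the 8 genes of the SRP and its receptor, 6 were lower, and the median log2 fold change was -0.40. SRP54, the GTPase subunit that holds the signal sequence, had 99.2, 110.0 and 110.3 CPM in control replicates 1, 2 and 3 and 83.2, 74.1 and 81.7 under hyperoside. The groups did not overlap, and the log2 fold change was -0.42 ± 0.08 (standard error, SE, adjusted p = 0.000298 from edgeR). Both receptor subunits fell. SRPRA, which encodes the GTPase that pairs with SRP54, had 401.2, 359.8 and 366.2 CPM under control and 272.4, 272.4 and 285.3 under hyperoside, a log2 fold change of -0.44 ± 0.07 (SE, adjusted p = 5.03e-05). SRPRB, its membrane anchor, fell from 44.1 ± 6.16 to 32.4 ± 3.1 CPM (± SD over 3 libraries), a log2 fold change of -0.44 ± 0.11 (SE, adjusted p = 0.0026). In SRPRB, control replicate 1 was the highest library and the groups were still apart.

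Within the particle the values differed among subunits, and differences between subunits were not tested. SRP19, which helps the particle assemble on its RNA, had 63.05, 62.9 and 56.8 CPM under control and 44.5, 45.7 and 43.1 under hyperoside, a log2 fold change of -0.46 ± 0.08 (SE, adjusted p = 0.000231). SRP9, of the domain that pauses translation, fell from 297.0 ± 44.2 to 228.4 ± 10.04 CPM (± SD over 3 libraries), a log2 fold change of -0.38 (adjusted p = 0.00233). Its partner SRP14 stood at 210.3, 193.4 and 185.8 CPM in control and 171.2, 171.1 and 181.2 in hyperoside libraries, and its log2 fold change of -0.17 had an adjusted p of 0.061. So the SRP14 groups did not overlap, but the gene was not called. SRP72 was called by a narrow margin, with a log2 fold change of -0.17 and an adjusted p of 0.049, and it lost the call in 12 of 15 alternatives. SRP68, which binds SRP72 in the particle, had 113.0, 98.5 and 92.5 CPM in control and 101.2, 99.4 and 96.6 in hyperoside libraries, with overlapping groups and a log2 fold change of -0.03 ± 0.08 (SE, adjusted p = 0.769).

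The translocon and its TRAP helper had 8 of 10 genes lower, and the median log2 fold change was -0.33. SEC61A1 encodes the channel itself and is joined by the small subunits SEC61B and SEC61G. SEC61A1 had 271.1, 250.7 and 268.0 CPM under control and 208.7, 230.0 and 214.8 under hyperoside, a log2 fold change of -0.27 ± 0.07 (SE, adjusted p = 0.00397). SEC61B fell from 59.3 ± 3.13 to 45.7 ± 2.81 CPM (± SD over 3 libraries), with -0.38 on the log2 scale (adjusted p = 0.0015). SEC61G fell from 92.8 ± 5.41 to 68.9 ± 3.99 CPM (± SD over 3 libraries), with -0.43 on the log2 scale (adjusted p = 0.000275). All 3 channel subunits had groups that did not overlap. Per length, SEC61G had the highest level of the 41 genes in the control group, 214.7 FPKM, and SEC61A2, a paralog of the channel gene, the lowest, 2.7 FPKM. SEC61A2 had 6.91, 10.3 and 9.43 CPM in control and 5.29, 5.72 and 7.005 in hyperoside libraries. It was called lower, at -0.56 ± 0.18 (SE, adjusted p = 0.0145), but hyperoside replicate 3 lay above control replicate 1.

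SEC62 and SEC63 assist entry through the SEC61 channel, including that of chains whose synthesis is complete. SEC63, the partner that draws on the luminal chaperone BiP, had 137.3, 164.3 and 154.0 CPM in control and 123.6, 113.8 and 104.8 in hyperoside libraries, a log2 fold change of -0.41 ± 0.08 (SE, adjusted p = 0.000588). SEC62 had 80.3, 97.1 and 103.8 CPM in control and 82.7, 81.9 and 79.6 in hyperoside libraries, so that control replicate 1 fell inside the hyperoside range, and its -0.20 had an adjusted p of 0.0696. Without control replicate 1, SEC62 was called lower. Among the TRAP subunits, SSR3 (TRAP gamma) was clearest, with 491.6, 518.5 and 507.5 CPM in control and 394.1, 382.2 and 376.5 in hyperoside libraries and a log2 fold change of -0.40 ± 0.06 (SE, adjusted p = 7.83e-05). SSR4 (TRAP delta) had -0.29 (adjusted p = 0.0104) and SSR1 (TRAP alpha) -0.24 (adjusted p = 0.0131), both with groups apart. SSR1 lost its call in 7 of 15 alternatives, among them those without control replicate 2 or 3 or hyperoside replicate 1 or 3, and SSR4 in 2, those without hyperoside replicate 1 or 2. SSR2 (TRAP beta) had 193.2, 164.4 and 171.3 CPM in control and 169.2, 167.5 and 182.6 in hyperoside libraries, within each other's range, with a log2 fold change of -0.03 ± 0.08 (SE, adjusted p = 0.805).

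Signal peptidase had 1 of 5 genes called lower, a count near the 23.2% of all tested genes called lower and below those of the steps around it. Its median log2 fold change was -0.07. The difference between steps was not tested. In all 5 genes the groups overlapped, while 27.3% of tested genes had every hyperoside library below every control library. SEC11A, the more abundant of the catalytic subunits, had 234.7, 220.7 and 220.1 CPM in control and 201.5, 211.3 and 221.2 in hyperoside libraries, a log2 fold change of -0.09 ± 0.07 (SE, adjusted p = 0.301). Its paralog SEC11C had 13.5, 16.9 and 16.8 CPM in control and 17.3, 15.9 and 15.9 in hyperoside libraries, with 0.05 ± 0.12 (SE, adjusted p = 0.737). The accessory subunits SPCS1 and SPCS2 had log2 fold changes of -0.07 ± 0.08 (SE, adjusted p = 0.501) and -0.04 ± 0.08 (SE, adjusted p = 0.701). The remaining accessory subunit, SPCS3, was called lower at -0.35 (adjusted p = 0.00901). Its control libraries were widely spread, with 213.4, 277.6 and 311.3 CPM, and control replicate 1 lay below hyperoside replicate 1, the highest of 220.6, 208.8 and 199.2 CPM. The call was lost without control replicate 3 or hyperoside replicate 3, and in both fits to FPKM values.

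**Figure D3:**
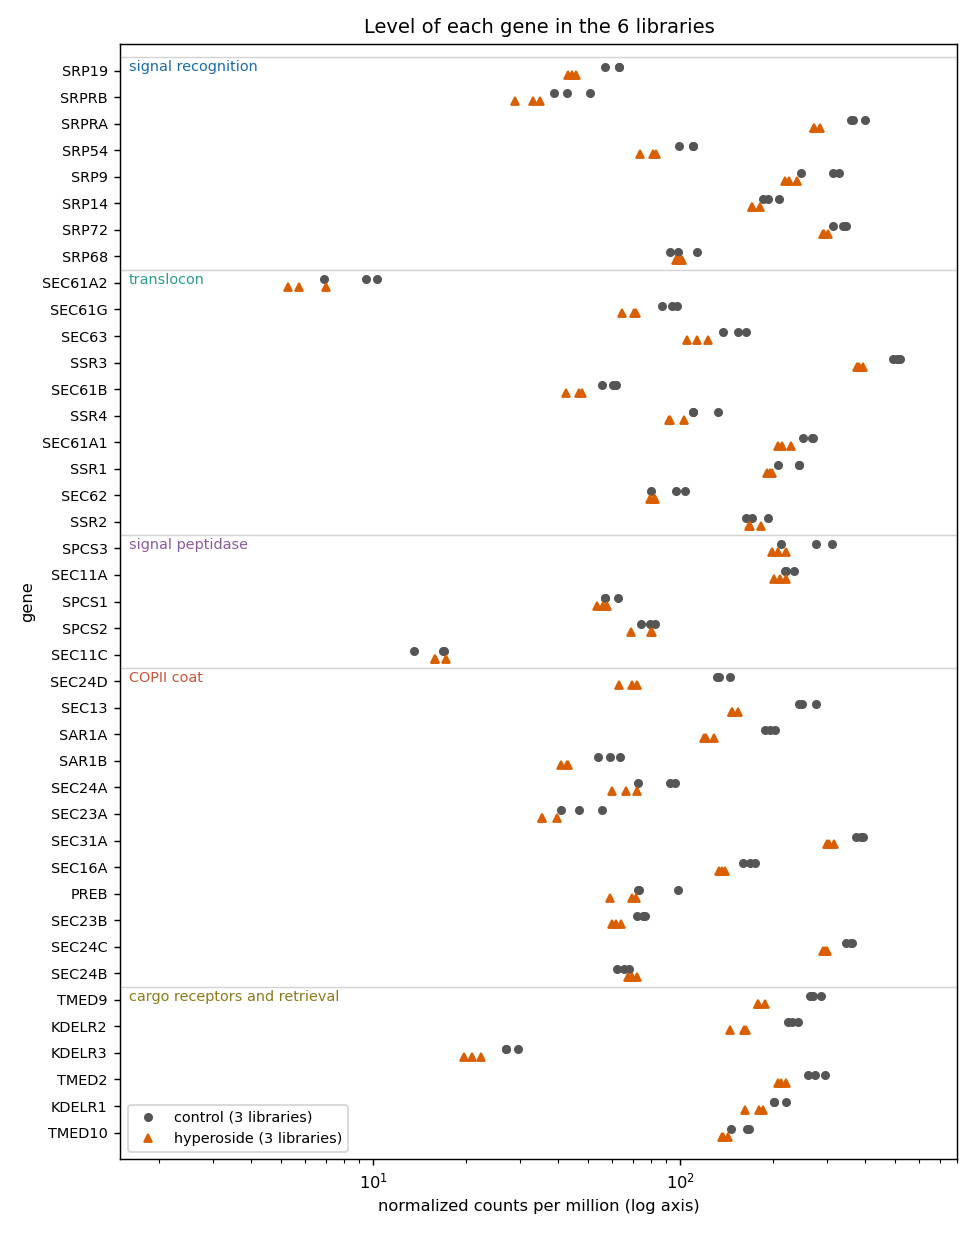
Normalized CPM (horizontal log axis) of each gene (vertical axis) in the 3 control libraries (grey circles) and the 3 hyperoside libraries (orange triangles), grouped by step. In the COPII coat the triangles lie left of the circles for 11 of 12 genes, and among the 5 signal peptidase genes the marks overlap.

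The COPII coat held the 3 largest changes, with 11 of 12 genes called lower and the same 11 without overlap of the groups. SEC24D, a cargo-binding subunit of the inner coat, lies on chromosome 4 from 118722823 to 118838683 of GRCh38 (minus strand). It had 131.7, 145.5 and 134.0 CPM in control replicates 1, 2 and 3 and 72.1, 62.9 and 69.7 under hyperoside, without overlap, and the fitted level was 49.8% of control. The log2 fold change was -1.01 ± 0.08 (SE, adjusted p = 2.16e-08 from edgeR), and 4.81% of tested genes had a lower one. SEC13, of the outer cage and also part of the nuclear pore, lies on chromosome 3 from 10293131 to 10321178 (minus strand). It had 276.9, 249.3 and 243.6 CPM under control and 147.8, 147.0 and 154.7 under hyperoside, a log2 fold change of -0.78 ± 0.07 (SE, adjusted p = 1.59e-07). SAR1A, the GTPase that starts coat assembly, lies on chromosome 10 from 70147289 to 70170523 (minus strand). It had 189.1, 204.0 and 196.6 CPM under control and 121.6, 129.2 and 119.7 under hyperoside, a log2 fold change of -0.67 ± 0.07 (SE, adjusted p = 6.61e-07). These 3 genes kept their calls in all 15 alternatives.

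Of the other 9 coat genes 8 were lower, with smaller fold changes. SAR1B, the paralog of SAR1A, fell from 58.7 ± 4.82 to 42.2 ± 1.2 CPM (± SD over 3 libraries), with -0.48 on the log2 scale (adjusted p = 0.00023). Its exons overlap those of SEC24A on the opposite strand, and SEC24A fell from 87.2 ± 12.3 to 66.2 ± 6.2 CPM (± SD over 3 libraries), with -0.40 (adjusted p = 0.00361). The genes share only a short stretch at their starts. The sources do not say if strand was used in counting, and without it reads within that stretch cannot be told apart. SEC31A, the partner of SEC13 in the cage, had 374.9, 394.6 and 388.6 CPM in control and 305.3, 301.2 and 317.8 in hyperoside libraries, a log2 fold change of -0.33 (adjusted p = 0.000585), beside -0.78 for SEC13, a difference that was not tested. SEC16A, the scaffold of exit sites, had -0.30 (adjusted p = 0.00206), and SEC24C, the most abundant SEC24, -0.27 (adjusted p = 0.00258). The SEC23 paralogs had similar values, -0.37 for SEC23A (adjusted p = 0.00772) and -0.27 for SEC23B (adjusted p = 0.00763). PREB, the exchange factor that activates SAR1, was called at -0.29 with an adjusted p of 0.0405. Its 98.5, 72.7 and 73.2 CPM in control and 59.2, 69.4 and 71.9 in hyperoside libraries show that control replicate 1 was far above the other libraries. PREB lost its call in 9 of 15 alternatives, among them those without control replicate 1 and without each hyperoside library. SEC24B was the exception, with 62.4, 68.3 and 65.8 CPM in control and 72.04, 67.7 and 69.5 in hyperoside libraries, overlapping groups and a log2 fold change of 0.09 ± 0.08 (SE, adjusted p = 0.36).

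All 6 genes of cargo receptors and retrieval were lower, each without overlap. TMED2, TMED9 and TMED10 encode p24 proteins, which cycle between ER and Golgi and help load cargo. TMED9, on chromosome 5 from 177592158 to 177596124 (plus strand), had 288.5, 271.3 and 265.2 CPM under control and 178.9, 178.6 and 188.7 under hyperoside, a log2 fold change of -0.59 ± 0.07 (SE, adjusted p = 1.89e-06). TMED2 fell from 276.8 ± 18.2 to 213.4 ± 6.43 CPM (± SD over 3 libraries), with -0.38 on the log2 scale (adjusted p = 0.000321). TMED10 was weaker, with 146.5, 167.6 and 164.7 CPM in control and 137.2, 142.9 and 137.6 in hyperoside libraries and a log2 fold change of -0.20 (adjusted p = 0.0367), and lost its call in 10 of 15 alternatives. The KDEL receptors return escaped ER chaperones. KDELR2, on chromosome 7 from 6445953 to 6484242 (minus strand), had 231.3, 224.4 and 241.3 CPM under control and 161.3, 145.5 and 163.4 under hyperoside, a log2 fold change of -0.57 ± 0.07 (SE, adjusted p = 5.5e-06). KDELR3, the least abundant, fell from 27.9 ± 1.51 to 20.99 ± 1.35 CPM (± SD over 3 libraries), with -0.41 (adjusted p = 0.00249). KDELR1, the most abundant per length at 132.0 FPKM in the control group, had 220.9, 202.0 and 202.2 CPM in control and 181.0, 163.0 and 186.5 in hyperoside libraries and -0.24 (adjusted p = 0.0149).

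The FPKM values, which divide counts by gene length and library total, were summed over each step as a description. The COPII coat went from 444.3 ± 2.14 to 331.8 ± 4.21 FPKM (± SD over 3 libraries), or 74.7% of the control mean. Cargo receptors and retrieval stood at 78.5% of it, signal recognition at 84.96% and the translocon at 84.4%. Signal peptidase went from 294.4 ± 14.1 to 279.3 ± 4.64 FPKM (± SD over 3 libraries), or 94.9%. So the 3 control libraries of the COPII sum lay close together and well above the hyperoside libraries, while for signal peptidase control replicate 1 lay at the hyperoside level.

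**Figure D4:**
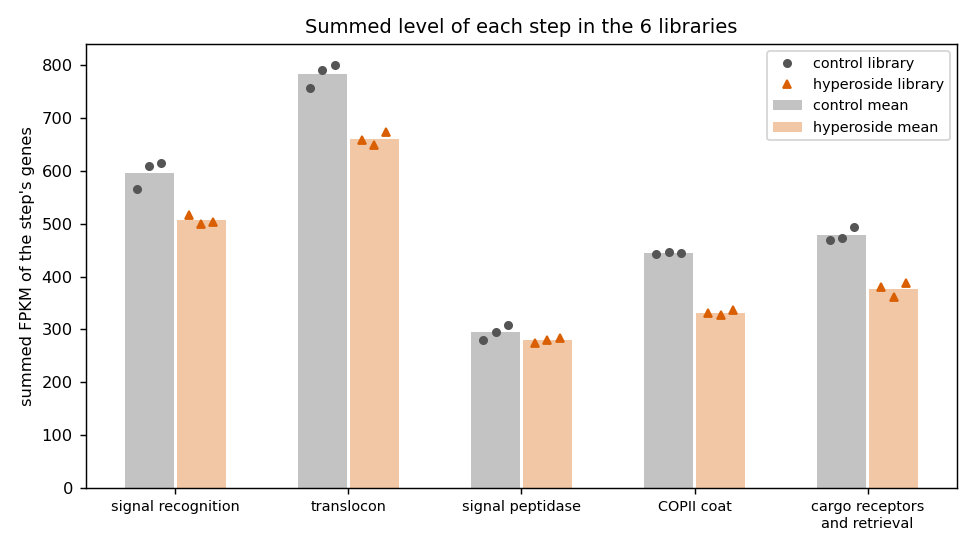
Summed FPKM (vertical axis, from 0) of the genes of each step (horizontal axis) in each library, with circles and triangles for control and hyperoside libraries and bars for the group means. The groups are apart in every step except signal peptidase, where control replicate 1 at 279.9 FPKM is below hyperoside replicate 3 at 283.2.

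Several steps use paralogs, and their balance was compared as the log2 ratio of FPKM within each library, for 8 pairs. The log2 ratio of SEC24C to SEC24D was 1.12 ± 0.07 under control and 1.85 ± 0.09 under hyperoside conditions (± SD, n = 3). That of SEC24A to SEC24B was -0.04 ± 0.16 under control and -0.53 ± 0.09 under hyperoside conditions (± SD, n = 3). In both pairs the groups did not overlap. As shares of the 4 SEC24 genes' summed FPKM, SEC24D went from 26.1 ± 0.638% to 17.2 ± 0.692%, SEC24B from 8.71 ± 0.213% to 12.3 ± 0.183% and SEC24C from 56.6 ± 1.7% to 62.04 ± 1.28% (SD, n = 3 each). The share of SEC24A was 8.51 ± 1.12% under control and 8.53 ± 0.561% under hyperoside. The log2 ratio of KDELR1 to KDELR2 was 0.69 ± 0.09 under control and 1.02 ± 0.01 under hyperoside conditions (± SD, n = 3), without overlap, and that of SAR1A to SAR1B was 1.90 ± 0.10 under control and 1.70 ± 0.05 under hyperoside conditions (± SD, n = 3), also without overlap.

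Each of these 4 pairs reached p = 0.1 when the 20 possible regroupings were enumerated (exact permutation, two-sided) and 0.2 after Benjamini-Hochberg adjustment over the 8 pairs. A design of 3 libraries against 3 allows no smaller p than 0.1, so no pair could pass a threshold of 0.05. In the other pairs the groups overlapped. The difference in log2 ratio, hyperoside minus control, was 0.28 for SEC61A1 to SEC61A2 and 0.16 for KDELR3 to KDELR2 (exact permutation p = 0.2 each). It was -0.15 for SEC11A to SEC11C (exact permutation p = 0.6) and -0.09 for SEC23A to SEC23B (exact permutation p = 0.7).

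**Figure D5:**
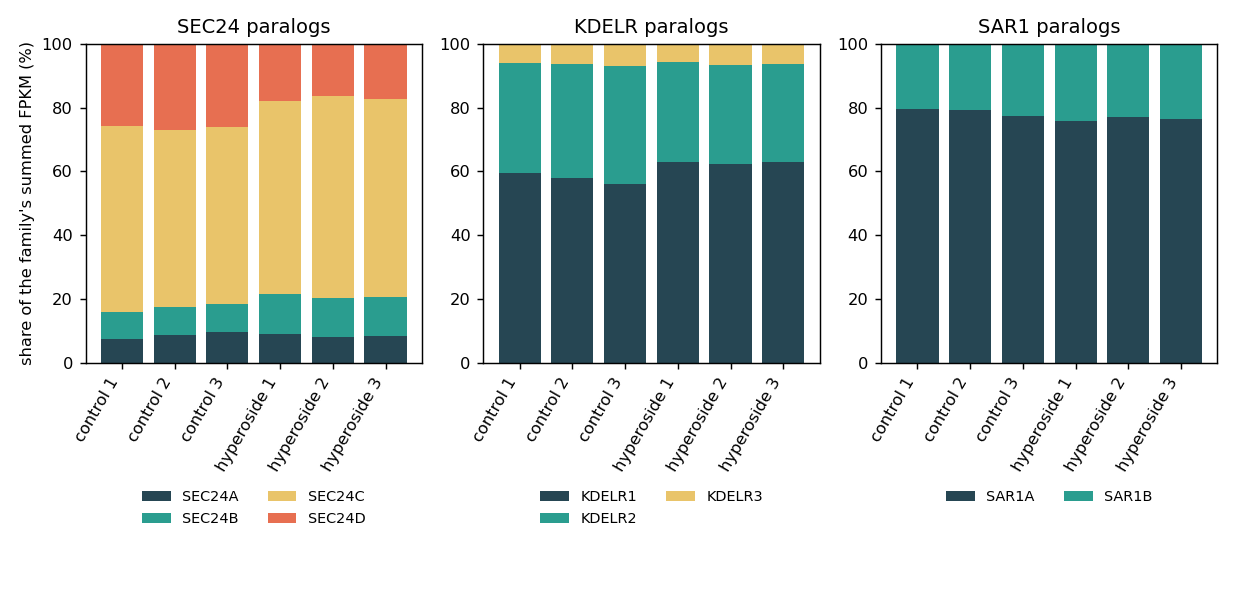
Share of each paralog in its family's summed FPKM (vertical axis, %) in each library (horizontal axis), for the SEC24, KDEL receptor and SAR1 families. The SEC24D share is 25.6 to 26.8% in control libraries and 16.4 to 17.8% in hyperoside libraries.

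Other genes of the route were read from 4 lists drawn up by function. Of 16 tested genes of the COPII fusion and exit site machinery outside the members, 11 were lower and 0 higher, with a median log2 fold change of -0.33. SEC22B, a SNARE of ER to Golgi vesicles, fell from 157.8 ± 6.65 to 93.6 ± 3.68 CPM (SD, n = 3 each; log2 fold change -0.75, adjusted p = 2.18e-07 from edgeR). The SNAREs BET1 and GOSR2 had log2 fold changes of -0.68 (adjusted p = 1.12e-05) and -0.51 (adjusted p = 2.45e-05). Of 20 other cargo receptors 9 were lower and 0 higher, with a median of -0.24. The p24 proteins TMED3 and TMED4 had -0.72 (adjusted p = 2.34e-06) and -0.38 (adjusted p = 0.000519). LMAN1, a lectin that carries coagulation factors, had -0.60 (adjusted p = 1.16e-05). The COPI coat, which runs the return route, had 11 of 16 genes lower and 1 higher, with a median of -0.34. ARFGAP1, which acts on the COPI GTPase, fell from 178.9 ± 13.8 to 94.4 ± 2.69 CPM (SD, n = 3 each; log2 fold change -0.92, adjusted p = 3.48e-08 from edgeR). ARF4, a small GTPase, had -0.82 (adjusted p = 2.43e-07) and the coat subunit COPZ1 -0.68 (adjusted p = 1.46e-06). The higher gene was COPG2, named after its values were seen, with 0.27 (adjusted p = 0.00859).

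Of 30 insertases and other translocation factors 8 were lower and 7 higher, with a median log2 fold change of -0.05. These shares lie near those of all tested genes, 23.2% lower and 22.1% higher. TRAM2, a relative of the translocating chain protein TRAM1, rose from 45.8 ± 1.91 to 64.9 ± 4.7 CPM (SD, n = 3 each; log2 fold change 0.50, adjusted p = 0.000111 from edgeR). GET4 and CAMLG, both of the route for tail-anchored proteins, had -0.51 (adjusted p = 0.000145) and -0.46 (adjusted p = 0.000899). With the replicate number as a block, the count of higher genes in this list was 3.

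Since the members were listed by name and function, their shared pathway annotation follows from that choice and is given only as description. A KEGG pathway was listed for 38 of the 41 genes. The protein export pathway held 19 members among its 23 genes in the table, and protein processing in the ER held 21 among 167. The exons of 24 members overlap another gene in GENCODE 29, 23 of them a gene on the opposite strand and 5 a gene on the same strand. The same-strand overlaps include KDELR2 with DAGLB and SRPRB with TF, and strand cannot separate reads within them. Among those 24, 20 were called lower, and among the 17 without overlap 12 were. Pseudogenes named after the gene exist for 12 members, such as SAR1A, SPCS2 and SRP14, and reads shared with such copies are an uncertainty of their counts. The gene length behind the FPKM values was 9577 bases for SRP19, and an FPKM level depends on which exons the length counts.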

How the data were processed

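RNA from K562 cells, 3 control and 3 hyperoside libraries, was prepared with Trizol and the VAHTS Universal V6 kit and sequenced on an Illumina HiSeq instrument. The submitters' processing notes name fastp, HISAT2, HTSeq and hg38. Roles, versions, annotation and the use of strand are not given in the sources used here. Values of both kinds used here were deposited by the authors, counts of reads on each gene with no scaling and FPKM values in which the counts are divided by gene length and library total. The annotation columns were used for gene numbers and KEGG pathways only, and no column holds a comparison.

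Genes were kept by filterByExpr (minimum count 10, minimum total 15), which left 15095 genes with 99.9% of counts. They were normalized by TMM (factors 0.957 to 1.03) and compared with edgeR 4.0.16 in R 4.3.3 by the quasi-likelihood test with condition as the only term, adjusted over all tested genes. The standard error is the log2 fold change divided by the square root of F. The study names the R package DESeq, which was not used. DESeq2 1.42.0 and limma 3.58.1 served as alternatives, beside other normalizations, other filters, a block on replicate number and the omission of single libraries. The steps were tested on simulated counts with 2-fold changes and smaller ones, which still exceeded the median change of the members. The smaller changes were missed more often. The changed genes were drawn from all tested genes, while most members are abundant, so the rates do not carry over to the members directly. A gene not called is therefore not shown to be unchanged. Paralog ratios used FPKM with nothing added and exact permutation tests in scipy 1.17.1. Gene positions came from GENCODE 29, on the build the files use.

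The members, lists, pairs and motifs were chosen with earlier results of these data known. Named are every member, up to 3 genes of each other list with the smallest adjusted p, and genes marked as named after their values were seen. Counting intervals are not given, since the spread between libraries exceeded counting error.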

Additional observations from a re-analysis of the deposited data

How the results depend on the processing

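Of the 32 members called lower, 20 kept that call in all 15 alternatives, including the replicate block and each library left out, and none was called higher in any. The 12 others, SRP9, SRP72, SEC61A2, SSR1, SSR4, SPCS3, PREB, SEC23A, SEC23B, SEC24A, TMED10 and KDELR1, lost it in at least 1. The share of all tested genes that kept a call in this way was not taken. The number of members called lower was 23 and 24 with limma on log2(FPKM + 1) and log2(FPKM + 0.1), 28 with library totals alone, 29 with the replicate block and 26 to 32 with 1 library left out. Over all 15095 tested genes, 3508 were lower in the main fit. Those alternatives gave 2783 and 2814, 2958, and 3103 in the same order. With 1 library left out, 2858 to 3618 of 15435 to 15570 tested genes were lower. The labels do not say whether same-numbered libraries were paired. Deviations from the group mean correlated at -0.08, -0.03 and -0.03 for same-numbered libraries and at -0.03 to 0.06 for the others. No sign of pairing was seen, but so few libraries cannot show that there was none.

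The translocon count was 5 to 9 with 1 library left out, lowest without hyperoside replicate 1. The signal peptidase count was 0 in both FPKM fits and 0 to 1 with 1 library left out. The single DEG, SEC24D, was lost (0 DEGs) with library totals alone, with no filter on low counts, with a minimum count of 50 and in both FPKM fits. With 1 library left out there were 0 to 1, none without control replicate 2 or hyperoside replicate 2. A 1.5-fold threshold gave 4, of which TMED9 changed least, and 11.8% of tested genes had a lower log2 fold change than TMED9. Among insertases and other translocation factors, 5 were lower in both FPKM fits, while 3 were higher with the replicate block and 2 to 9 with 1 library left out. In the COPI list 0 to 1 were higher, none without hyperoside replicate 1. The cause of these shifts was not tested.

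Genes that were not called changed sign. With library totals alone the log2 fold change was 0.0187 for SRP68, 0.0245 for SSR2 and 0.00522 for SPCS2. With limma on log2(FPKM + 1) and log2(FPKM + 0.1) it was 0.0204 and 0.021 for SRP68, 0.0254 and 0.0255 for SSR2, and 0.00389 and 0.00398 for SPCS2. With 1 library left out it ran from -0.0977 to 0.055 for SRP68, -0.076 to 0.0473 for SSR2, -0.0868 to 0.0257 for SPCS2 and -0.0418 to 0.106 for SEC11C. The SEC23A to SEC23B ratio difference ran from -0.214 to 0.0146, above 0 without control replicate 3. The other 7 paralog differences kept their sign in all alternatives run for them.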
